A study of Mus musculus with 7 samples.

Results

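The basement membrane is the thin sheet of matrix under epithelium and around blood vessels. It is built from 2 networks, laminin heterotrimers of an alpha, a beta and a gamma chain and type IV collagen heterotrimers, joined by nidogen and perlecan, with type XVIII collagen at its matrix side. The levels of 10 of its genes, chosen by name, were followed through the cells of mammary tumors: Col4a1 and Col4a2 (the common type IV collagen chains), Lama4 and Lama5 (alpha chains of laminins), Lamb1 and Lamb3 (beta chains, Lamb3 belonging to the epithelial laminin-332), Lamc1 (the common gamma chain), Nid1 (nidogen-1), Hspg2 (perlecan) and Col18a1 (type XVIII collagen, the source of endostatin). These 10 genes are 10 of 33710 genes listed in the matrices, and each of them was listed in all 7 libraries.

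The tumors came from 7 control mice, MMTV-PyMT animals with HK2 f/f alleles on a C57BL/6 background, in which the mouse mammary tumor virus promoter drives the polyoma middle T oncogene (PyMT) in mammary epithelium. Their genotype label was wild type, they were taken 3 months after a palpable tumor had formed, and per the study's methods they received tamoxifen like the HK2-deleted animals, whose libraries were not analysed here. The assay was Drop-seq, a droplet method for mRNA of single cells in which each captured transcript carries a unique molecular identifier (UMI), with 1 library for each mouse. Mice are called 1, 2, 3 and 4 (title series CB) and 5, 7 and 8 (title series WT).

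Cells were the 15047 barcodes in which 200 to 6000 genes were found, 1133 to 4780 for each mouse, with a median of 527 to 694 UMIs a cell and 962677 to 4471473 UMIs in the cells of a library. No pair of libraries shared more than 1 cell barcode. Clusters were named from marker genes, with the basement membrane genes left out of the clustering, and were summed into 7 classes: 5516 tumor/alveolar-like, 1710 hormone-sensing luminal-like, 252 myoepithelial-like, 1032 fibroblast-like, 144 endothelial-like, 2633 macrophage-like and 2207 T/NK-like cells. The marker list of each of the 7 classes had its highest summed level in that class, which is no separate check, since these lists named the clusters. The myoepithelial-like class also carried 10350 to 40620 UMIs per 1000000 UMIs (CPM) of the tumor/alveolar markers, against 36790 to 69730 CPM in the tumor/alveolar-like class. The endothelial-like class held 7 of the 8 pericyte markers (Notch3 was at 0). They summed to 932 to 2884 CPM, with a median of 1087 CPM, the highest median of the 7 classes. Levels below are CPM of all UMIs of a class in a mouse, as mean ± SD over mice with at least 10 cells of the class. This left 7 mice for 5 of the classes, 5 mice (1, 4, 5, 7 and 8) for myoepithelial-like cells and 3 mice (4, 5 and 8) for endothelial-like cells. In CPM of a cell class, less RNA of a gene in each cell and fewer cells that make it cannot be told apart.

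Type IV collagen genes stand head to head in the genome. Col4a1 lies on the minus strand of chromosome 8 (chr8:11198423-11312826, GRCm38) and Col4a2 on the plus strand (chr8:11312805-11449287), so that their annotated first exons overlap by 22 bases. The stretch is shown because these genes had the most similar pattern over classes of any 2 members compared (Pearson r = 0.978 over 43 sums of a class in a mouse). The 30 bases around it, from RefSeq GRCm38.p6 (chr8:11312801-11312830, plus strand), have in capitals the bases from one annotated start to the other.
Col4a1 and Col4a2: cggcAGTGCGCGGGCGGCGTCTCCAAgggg

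Most Lama5 UMIs lay in luminal cells and most Nid1 UMIs in fibroblast-like cells, so the bases just before their first exons are shown for comparison. They were taken from RefSeq GRCm38.p6, with the GC box letters GGGCGG on either strand in capitals, which occurred 4 times before Lama5 (chr2:180225860-180226109, minus strand) and 1 time before Nid1 (chr13:13437352-13437550, plus strand).
Lama5: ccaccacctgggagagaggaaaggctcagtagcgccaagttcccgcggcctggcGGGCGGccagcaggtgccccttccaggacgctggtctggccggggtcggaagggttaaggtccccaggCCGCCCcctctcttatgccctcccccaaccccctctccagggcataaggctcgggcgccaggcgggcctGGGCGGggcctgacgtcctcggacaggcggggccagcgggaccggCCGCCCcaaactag
Nid1: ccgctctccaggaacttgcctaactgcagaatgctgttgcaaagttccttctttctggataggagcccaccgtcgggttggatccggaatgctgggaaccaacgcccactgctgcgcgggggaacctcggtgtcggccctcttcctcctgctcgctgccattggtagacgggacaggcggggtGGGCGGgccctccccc
In windows from 250 bases before to 50 bases after the annotated start, 8 of the 10 members had a sequence, Lamb3 and Col18a1 with 2 windows each, and the Col4a1 and Col4a2 windows shared 78 bases. GGGCGG was found in 7 of these 10 windows and in 35.7% of all 32851 windows, CCAAT in 5 of 10 and 37.4%, and TATAAA in 0 of 10 and 13.6%, on either strand. Lamb3 held none of these motifs in its windows. These matches describe letters and were not tied to any measurement here.

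The UMIs of the 10 genes were not divided among classes as the cells were. Fibroblast-like cells were 6.86% of all cells and held 6.35% of all UMIs, but they held 86.9% of the Nid1 UMIs and 84.4% of the Hspg2 UMIs. They also held 64.4% of Lamc1, 62.7% of Lamb1, 59.4% of Col4a1, 59.0% of Lama4 and 52.1% of Col4a2. By mouse, the fibroblast-like share of Nid1 UMIs lay between 74.0% and 100% and that of Col4a1 between 42% and 81.8%, while their share of cells lay between 2.16% and 35.4%. Endothelial-like cells were 0.957% of cells and held 13.3% of Col4a1, 16.9% of Col4a2 and 19.3% of Col18a1. Myoepithelial-like cells, 1.68% of cells, held 15.8%, 20.6% and 23.2% of these 3 genes. For Lama5 and Lamb3 the 2 luminal classes held most UMIs. These classes also made up much of the data: tumor/alveolar-like cells were 36.7% of cells and held 44.9% of all UMIs, and hormone-sensing luminal-like cells were 11.4% of cells and held 17.2% of all UMIs. Without mouse 4 these classes were 39.4% and 6.78% of cells. Of the pooled Lama5 UMIs, hormone-sensing luminal-like cells held 49.6% and tumor/alveolar-like cells 36.0%, but this order rests on mouse 4, which gave 145 of the 275 hormone-sensing UMIs. Without mouse 4 the shares were 36.2% and 46.5%, and the medians over mice were 27.5% (range 14.3% to 74.0%) and 41.9% (range 16.8% to 75.8%), with the hormone-sensing share the larger in 2 of 7 mice. Tumor/alveolar-like cells held 55.6% of Lamb3, and 43.9% to 59.5% with each mouse left out, a range added after seeing the data. Clusters outside the 7 classes held 15.7% of the Lamb3 and 9.01% of the Lama5 UMIs. Of these, 48 Lamb3 and 42 Lama5 UMIs lay in an unnamed cluster that is described below. With each mouse left out, the pooled fibroblast-like share lay between 84.5% and 90.4% for Nid1 and between 81.6% and 86.4% for Hspg2. Shares depend on how many cells of each class were recovered after collagenase dissociation, so the levels in each class are given next.

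**Figure D1:**
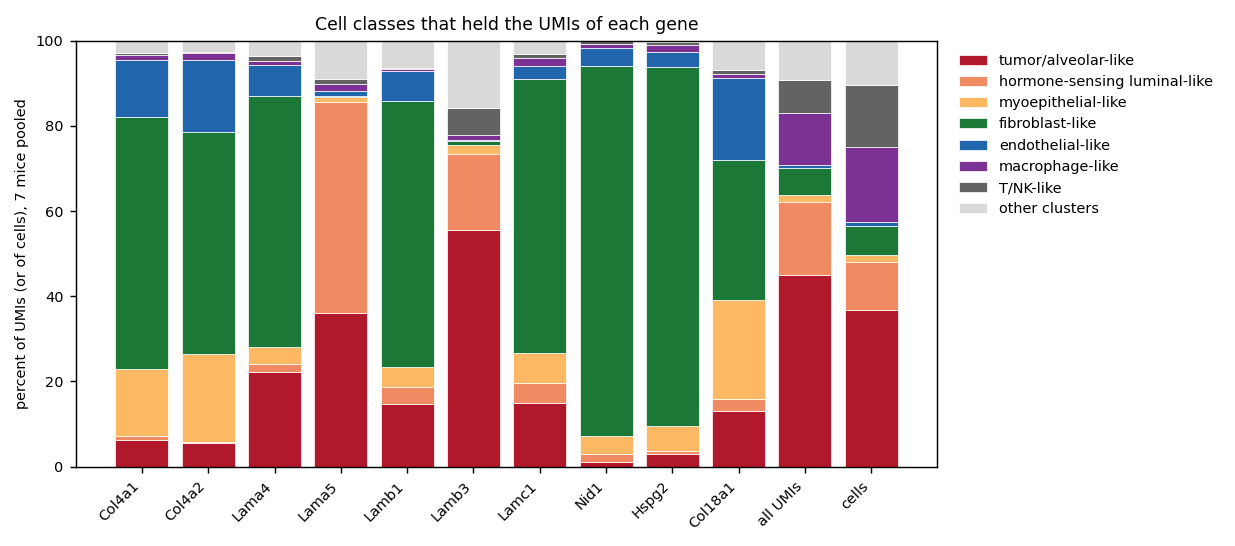
Stacked bars give the percent of each gene's UMIs (7 mice pooled) found in each cell class, with all UMIs and all cells as the last 2 bars, and light gray for B/plasma, erythroid and unnamed clusters. Fibroblast-like cells take 86.9% of Nid1 against 6.86% of cells, and the 2 luminal classes hold most of Lama5, in an order that turns without mouse 4.

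**Figure D2:**
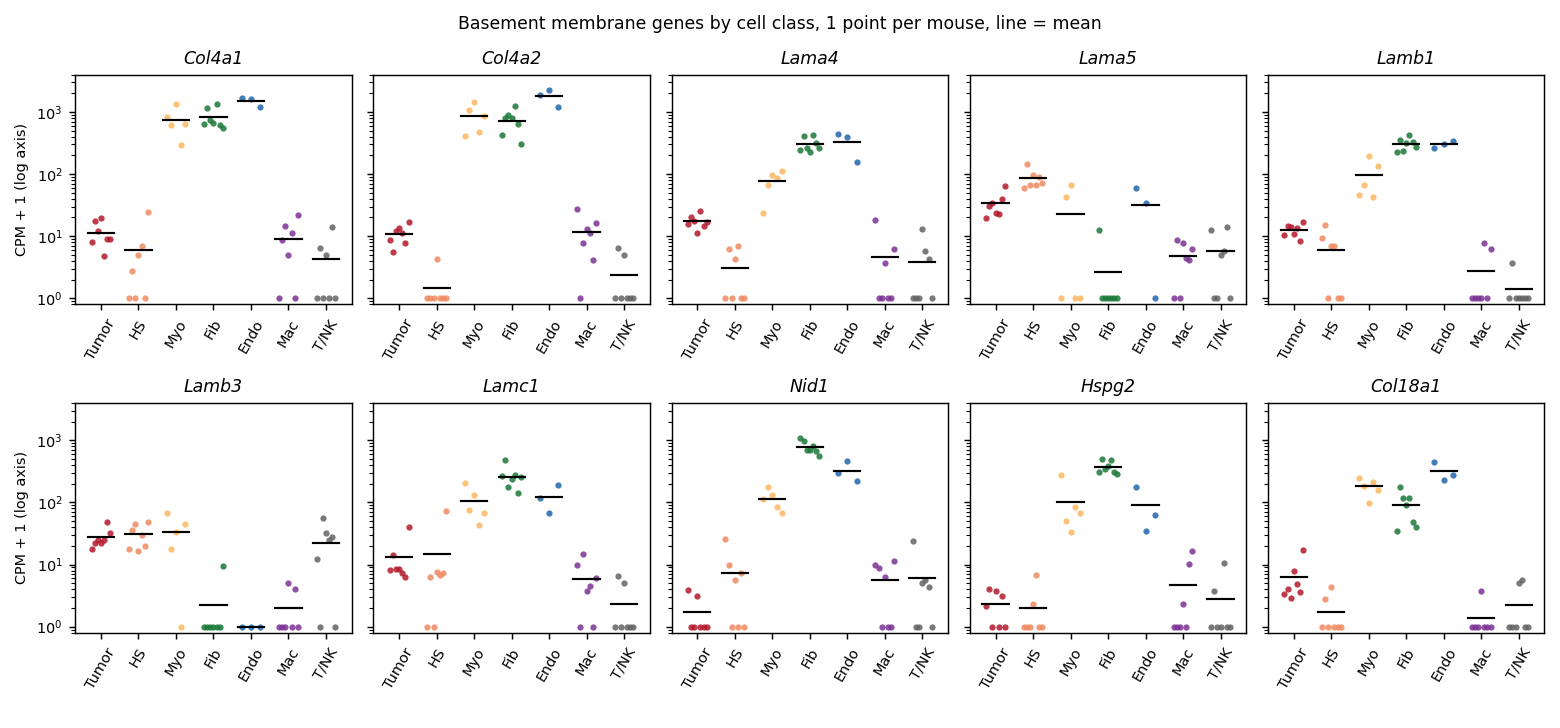
CPM + 1 on a log axis of the 10 members in the 7 cell classes (tumor/alveolar, hormone-sensing luminal, myoepithelial, fibroblast, endothelial, macrophage and T/NK), with 1 point for each mouse with at least 10 cells and a line at the mean. All members but Lama5 and Lamb3 are high in myoepithelial, fibroblast and endothelial cells, Lama5 is highest in hormone-sensing luminal cells, and Lamb3 is found in the 3 epithelial classes and in T/NK cells.

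Fibroblast-like cells, the stromal cells that also make interstitial collagen, had 8 of 10 members higher than T/NK-like cells and 1 lower. T/NK-like cells served as the reference since lymphocytes are not known to build basement membrane. All p-values for genes are from the quasi-likelihood test of edgeR, blocked by mouse and adjusted over 13062 genes, with an adjusted p under 0.05 as a call. In this comparison 36.1% of all genes were called, 19.4% higher and 16.7% lower, and the median log2 fold change was 6.82 for the 10 members against -0.04 for all genes. Within the CB series 8 members were higher and 1 lower, and within the WT series 8 were higher. The shares of all genes above are those of the fit of all 7 mice and not of these smaller fits.

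Nid1, the linker between the laminin and collagen networks, was at 1073, 980, 696, 700, 815, 664 and 554 CPM in fibroblast-like cells of mice 1, 2, 3, 4, 5, 7 and 8. In T/NK-like cells it had 5 UMIs in all mice together, and its level was 5.0 ± 8.19 CPM (SD, n = 7). Every fibroblast value lay far above every T/NK value, and the log2 fold change was 7.52 ± 0.381 (SE, edgeR adjusted p = 3.87e-36). Each SE of a log2 fold change was derived from the F statistic of the test. With few UMIs in a class it can lie below counting error. Perlecan (Hspg2), a heparan sulfate proteoglycan, ranged from 291 to 490 CPM with a median of 348 CPM in the 7 fibroblast sums. Mouse 8 had the lowest level of both genes.

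Both type IV collagen chains were found in fibroblast-like cells of every mouse. Col4a1 was at 628, 1156, 753, 662, 1327, 625.1 and 548 CPM in the 7 mice, and its log2 fold change over T/NK-like cells was 7.12 ± 0.381 (adjusted p = 3.01e-34). Col4a2 was at 422, 788, 898, 807, 1233, 630 and 303 CPM. Mouse 5 was highest for both chains and mouse 8 lowest for both. Pericyte markers were also highest in mouse 5 here, at 617 CPM against 29.0 to 333 CPM in the other mice, and their part in these levels was not tested. T/NK-like cells held 3 UMIs of Col4a2, so the ratio of pooled CPM is given with its counting interval, 250-fold (95% exact interval 85.1 to 1216).

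Of the laminin chains, Lama4, Lamb1 and Lamc1 were measured in fibroblast-like cells of every mouse, at 304 ± 78.4, 308 ± 72.0 and 260 ± 106.5 CPM (SD, n = 7). Their chains make laminin-411, a trimer known from vessel walls and mesenchyme. Lamb1 had 1 UMI in all T/NK-like cells and 307 in fibroblast-like cells, a ratio of 379 (95% exact interval 67.6 to 15030). Lama5 had 1 UMI among 1010540 UMIs of fibroblast-like cells. Lamb3 had 3 UMIs there, all in mouse 8, and was lower than in T/NK-like cells (adjusted p = 0.00669), a call lost in the WT series alone and without mouse 4 (adjusted p up to 0.0796).

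Endothelial-like cells, which lie on their own vessel basement membrane, had the highest mean CPM of Col4a1, Col4a2, Lama4 and Col18a1 of all classes. Within the mouse, however, Lama4 was higher than in fibroblast-like cells in only 1 of 3 mice. Its log2 fold change against them was -0.61 ± 0.356 (edgeR adjusted p = 0.357). Against T/NK-like cells 8 of 10 members were higher, where 11.8% of all genes were called, 4.91% higher and 6.94% lower. Lama5 and Lamb3, with 3 and 0 UMIs in the 3 mice used, were not called, which does not show that their levels were alike. The Hspg2 call was lost in the WT series alone and without mouse 4 (adjusted p up to 0.269). Col4a1 was at 1704, 1624 and 1212 CPM in mice 4, 5 and 8, and Col4a2 at 1881, 2221 and 1212 CPM. Pericyte markers summed to 1087, 2884 and 932 CPM in the endothelial-like cells of these mice, and their part in these levels was not tested. Both chains were higher in each of these 3 mice than in fibroblast-like cells of the same mouse. Col18a1, whose fragment endostatin is known for its action on vessels, was at 441, 232 and 280 CPM against 90.8, 116 and 40.0 CPM in fibroblast-like cells of those mice.

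In the test against fibroblast-like cells, 1 member was higher (Col18a1, log2 fold change 1.32 ± 0.416, adjusted p = 0.0287) and 3 were lower. The lower ones were Hspg2 at -2.64 ± 0.494 (adjusted p = 2.01e-05), Nid1 at -1.88 ± 0.361 (adjusted p = 3.31e-05) and Lamc1 at -1.80 ± 0.455 (adjusted p = 0.00285), while 8.39% of all genes were called, 2.03% higher and 6.36% lower. This split depended on the scale. The scaling factors (TMM) placed the median of all genes at -0.69, and with total UMIs as the scale, which is the scale of the CPM values, the median was -0.04. On that scale 4 members were higher, Col4a1 (log2 fold change 0.88), Col4a2 (1.15), Lama5 (4.62) and Col18a1 (2.04), and 2 were lower, Nid1 (-1.15) and Hspg2 (-1.90), where 4.62% of all genes were higher and 3.25% lower. The Lama5 call rests on 3 UMIs against 1 and was not made with TMM (adjusted p = 0.0887). Nid1 and Hspg2 were lower and Col18a1 higher on both scales. The Lamc1 call was lost on the scale of total UMIs, in the CB series alone (1 mouse with enough endothelial-like cells) and without mouse 5 (adjusted p up to 0.401), and the Hspg2 call in the CB series alone (adjusted p = 0.253). The Col18a1 call was lost in the CB and WT series alone, without mouse 4 or without mouse 8, with DESeq2 and under 3 other settings (adjusted p up to 0.43).

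Endothelial-like cells were also compared with myoepithelial-like cells, which like fibroblast-like cells were rich in type IV collagen RNA. Lama4 was higher in endothelial-like cells (441, 398 and 155 CPM against 66.9, 97.4 and 112 CPM in mice 4, 5 and 8), with a log2 fold change of 1.80 ± 0.481 (adjusted p = 0.0106), and it was the 1 member called where 4.49% of all genes were, 1.87% higher and 2.63% lower. The call was lost in the WT series alone, with at least 500 genes a cell, without mouse 4 and without mouse 5 (adjusted p up to 0.527). Lama4, Lamb1 and Nid1 did not overlap between the classes, and the latter pair was not called (adjusted p = 0.0921 and 0.136). Of all genes tested, 7.45% had groups without overlap here. On the scale of total UMIs 4 members were higher, Lama4 (2.06), Lamb1 (1.58), Nid1 (1.49) and Col4a2 (0.82), where 2.95% of all genes were higher and 2.14% lower.

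Myoepithelial-like cells are the contractile outer layer of the mammary duct, the epithelial layer that touches the basement membrane. Against T/NK-like cells 8 of 10 members were higher (25.9% of all genes were called, 12.1% higher and 13.9% lower) and against tumor/alveolar-like cells 8 of 10 were higher, in both cases all but Lama5 and Lamb3. In the latter comparison 17.1% of all genes were called, 5.85% higher and 11.3% lower, with a median log2 fold change of 4.04 over the members against -0.51 over all genes. Col4a1 was at 837, 611, 1363, 297 and 649 CPM in mice 1, 4, 5, 7 and 8, against 3.84 to 18.7 CPM in tumor/alveolar-like cells, and its log2 fold change was 5.62 ± 0.304 (adjusted p = 4.67e-33). Col4a2 was at 407, 1071, 1428, 467 and 873 CPM, with a log2 fold change of 6.01 ± 0.294 (adjusted p = 1.84e-36). Pericyte markers summed to 1720 CPM in the myoepithelial-like cells of mouse 5, which had the highest level of both chains, and to 42.4 to 157 CPM in the other mice. Without mouse 5 the log2 fold changes were 5.28 for Col4a1 and 5.86 for Col4a2 (adjusted p = 1.68e-30 and 8.36e-34). The groups did not overlap for 7 of the 8 genes, and the one that overlapped was Lama4 (22.6 to 112 against 10.4 to 24.3 CPM). Of all genes tested, 9.19% had groups without overlap in this comparison. The Lama4 call was lost with cells gated by their own markers, in each title series alone and without mouse 4 (adjusted p up to 0.665).

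Compared with fibroblast-like cells, myoepithelial-like cells had 2 members called higher and 5 lower, where 11.5% of all genes were called, 3.71% higher and 7.79% lower. Col4a1, Col4a2 and Col18a1 were not called, with log2 fold changes of -0.51 ± 0.251, -0.17 ± 0.236 and 0.85 ± 0.358. On the scale of total UMIs Col18a1 was called higher, at 1.29, and Col4a2 turned to 0.33, not called. Nid1 (-3.08 ± 0.311, adjusted p = 6.23e-15), Lama4 (-2.41 ± 0.356), Hspg2 (-2.39 ± 0.355), Lamb1 (-2.19 ± 0.330) and Lamc1 (-1.71 ± 0.345) were all lower in myoepithelial-like cells. Fibroblast markers in the myoepithelial-like class summed to 4.40% of their level in fibroblast-like cells, and the pooled CPM of Nid1 was 19.0% and that of Col4a1 102% of the fibroblast level. The part of fibroblast RNA in the myoepithelial levels was not tested. Lama5 and Lamb3 were called higher than in fibroblast-like cells from 7 and 8 UMIs against 1 and 3, with pooled ratios of 26.8 (95% exact interval 3.44 to 1208) and 10.2 (2.45 to 59.8), and PyMT, a marker of the tumor/alveolar-like class, stood in the same class at 45.5% of its tumor level. The part of such RNA in these 2 calls was not tested. The Lama5 call was lost under 6 alternatives and the Lamb3 call under 4, among them the WT series alone and leaving out mouse 4 (adjusted p up to 0.518 and 0.683).

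**Figure D3:**
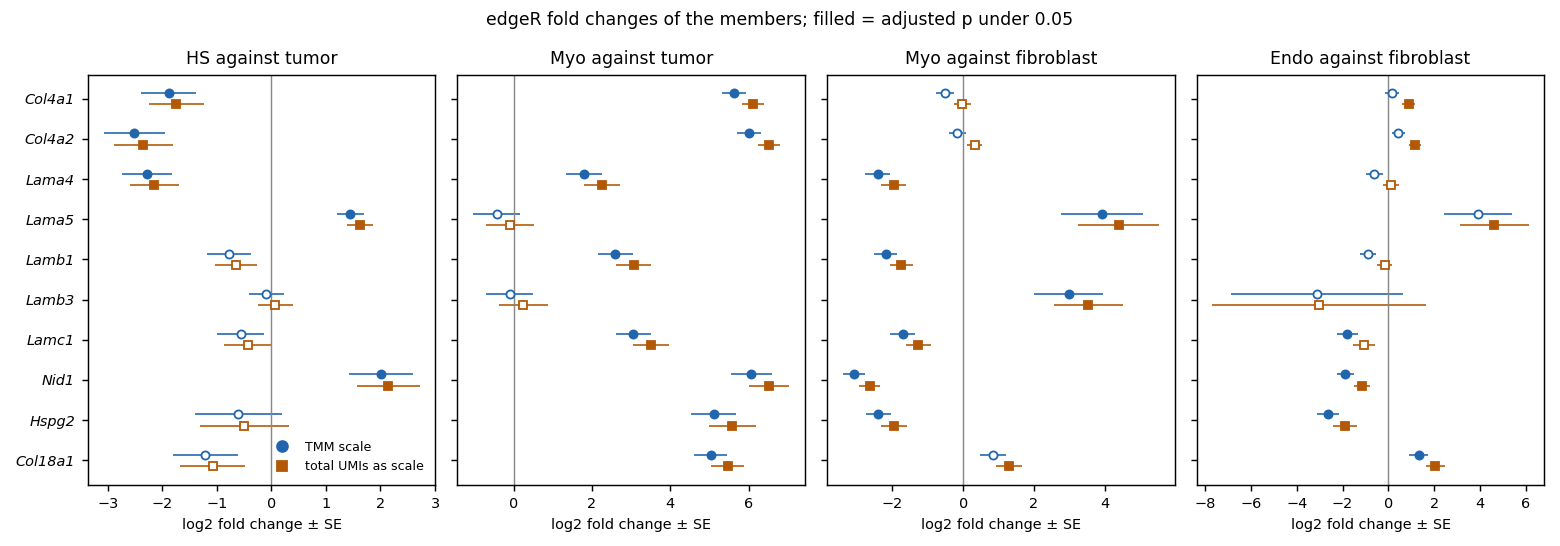
Points are edgeR log2 fold changes of the 10 members in 4 comparisons, and filled symbols mark an adjusted p under 0.05. Bars give the SE derived from the F statistic of the test. Blue circles use TMM scaling and orange squares total UMIs. Type IV collagen genes were not called between myoepithelial and fibroblast cells on either scale, and Nid1 and Hspg2 are lower than in fibroblasts on both scales.

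Tumor/alveolar-like cells, marked by PyMT and milk genes, held the members at low levels. Against T/NK-like cells 5 of 10 were higher and 0 lower by edgeR, where 42.5% of all genes were called, 27.1% higher and 15.4% lower. Lama5 was at 18.9, 29.9, 33.3, 22.9, 21.7, 38.2 and 63.5 CPM in the 7 mice, where T/NK-like cells ranged from 0 to 13.2 CPM, and its log2 fold change was 2.42 ± 0.491 (adjusted p = 1.98e-05). Lamb1 did not overlap either, at 7.42 to 15.9 CPM against 0 to 2.72 CPM, and its call held in all 24 alternatives. Of all genes tested, 12.3% had groups without overlap in this comparison. Col4a1 was at 10.4 ± 5.36 CPM and was not called (adjusted p = 0.16, and 24.0 CPM with the marker gate), nor were Nid1, Hspg2, Col18a1 and Lamb3. The calls for Col4a2, Lama4 and Lamc1 were lost in the CB series alone, and those for Lama4, Lama5 and Lamc1 in the WT series alone. The Col4a2 call was also lost without mouse 1, 4, 5 or 7 (adjusted p up to 0.482) and the Lamc1 call without mouse 3, 4, 5, 7 or 8 (adjusted p up to 0.327). Barcodes with fewer than 200 genes held Col4a1 at 68.6 ± 56.9 CPM, Col4a2 at 58.8 ± 25.1, Lama5 at 43.7 ± 30.9, Lamb1 at 28.3 ± 15.6, Lama4 at 22.9 ± 10 and Lamc1 at 22.7 ± 22.8 CPM (SD, n = 7). The mean tumor/alveolar-like level was below that of these barcodes for 9 of 10 members, the 5 called ones included, and above it for Lamb3. The part of free RNA in these 5 calls was not tested.

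Hormone-sensing luminal-like cells, which carry estrogen, progesterone and prolactin receptors, held the highest level of Lama5, the alpha chain of laminin-511. Lama5 was at 58.6, 146, 66.8, 96.6, 64.5, 87.1 and 71.2 CPM in mice 1, 2, 3, 4, 5, 7 and 8. It was higher than in tumor/alveolar-like cells in 7 of 7 mice, by a log2 fold change of 1.44 ± 0.249 (adjusted p = 1.06e-06), and the groups overlapped only in that the tumor/alveolar value of mouse 8 lay above the hormone-sensing value of mouse 1. In that comparison 2 members were higher and 3 lower, where 22.9% of all genes were called, 8.71% higher and 14.1% lower. Against T/NK-like cells 2 of 10 members were higher, Lama5 (3.86 ± 0.448, adjusted p = 1.04e-12) and Lamb1 (adjusted p = 0.021, at 4.91 ± 5.34 CPM), where 38.6% of all genes were called, 21.4% higher and 17.2% lower. The Lamb1 call was lost under 9 alternatives, among them those without mouse 4, 5 or 7 (adjusted p up to 0.502). With mice pooled, a Lama5 UMI was found in 12% of hormone-sensing luminal-like cells (95% exact interval 10.5 to 13.6). It was found in 3.30% of tumor/alveolar-like cells and 0.272% of T/NK-like cells. Median depths were 872, 668 and 419 UMIs a cell. The interval treats cells as independent and leaves out the spread between mice, and mouse 4 gave 1014 of the 1710 hormone-sensing cells. Against tumor/alveolar-like cells, the log2 fold change of Lama5 was 1.80 within the CB series, and 0.97 and not called within the WT series (adjusted p = 0.328).

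Lama4 and the type IV collagen genes went the other way. Lama4, Col4a1 and Col4a2 were lower in hormone-sensing luminal-like than in tumor/alveolar-like cells, by log2 fold changes of -2.29 ± 0.459, -1.89 ± 0.510 and -2.52 ± 0.560 (adjusted p = 2.8e-05, 0.00255 and 0.000182). Lama4 and Col4a2 were lower in 7 of 7 mice without overlap, at 0 to 5.87 CPM against 10.4 to 24.3 CPM for Lama4, where 5.44% of all genes had groups without overlap. For all 3 genes the mean level of both classes was below that of barcodes with fewer than 200 genes, and the part of free RNA in these calls was not tested. Nid1 was called higher (2.01 ± 0.592, adjusted p = 0.00626), from 16 UMIs against 8, at 6.40 ± 8.96 against 0.719 ± 1.25 CPM, and it was higher in 4 of 7 mice. Both levels were below the 34.2 CPM of barcodes with fewer than 200 genes, and the call was lost under 4 alternatives, one of them without mouse 2 (adjusted p up to 0.438). Of the fibroblast markers, Dcn was at 1265 pooled CPM in hormone-sensing luminal-like and 33.2 in tumor/alveolar-like cells, while Col1a2 (19.7 and 18.6), Col3a1 (12.4 and 13.9) and Col1a1 (5.11 and 4.48) were near each other, and the part of fibroblast RNA in the Nid1 value was not tested. In the WT series alone all 5 calls of this comparison were lost (adjusted p = 0.142 to 0.916), and the Col4a1 call was also lost without mouse 4.

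Lamb3, a beta chain of laminin-332, was measured in all 3 epithelial classes. It was at 26.6 ± 10.2 CPM in tumor/alveolar-like cells (n = 7), 29.6 ± 13.3 CPM in hormone-sensing luminal-like cells (n = 7) and 32.4 ± 26.0 CPM in myoepithelial-like cells (n = 5). The myoepithelial level depended on how cells were chosen, at 90.5 ± 47.5 CPM with the marker gate (n = 3) and 11.2 ± 16 CPM with at least 500 genes a cell (n = 4), while the tumor/alveolar level stayed at 29.0 and 26.3 CPM. Neither difference from tumor/alveolar-like cells was called, with log2 fold changes of -0.09 ± 0.316 and -0.10 ± 0.598. Against T/NK-like cells none of the 3 classes was called (edgeR adjusted p = 0.286, 0.463 and 0.702 in the order above). Barcodes with fewer than 200 genes held Lamb3 at 22.7 ± 13.6 CPM, and the part of free RNA in these levels was not tested. In endothelial-like cells it had 0 UMIs in the 3 mice used, which allows up to 31.1 CPM at 3 UMIs, so a level like that of epithelium could not be detected at this depth. Within the tumor/alveolar-like class, the cluster led by Saa1, Saa2, Spp1 and Ltf held Lamb3 at 36.9 ± 17.1 CPM and the cluster led by Thrsp, Emid1 and Lalba at 14.6 ± 5.66 CPM, with the first higher in 6 of 7 mice. The remaining cluster of the class, of 658 cells, held Lamb3 at 31.1 CPM with its mice pooled (37 UMIs). These levels are given as a description, since the clusters were made from these cells. The unnamed cluster of 669 cells led by Edn1 and Csn1s1, of which 365 came from mouse 3, held Lamb3 at 52.8 CPM with its mice pooled (48 UMIs). With 30 principal components all 17 clusters were named, and mouse 3 had 809 tumor/alveolar-like cells against 439 here. Whether the unnamed cells were among these was not tested.

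In T/NK-like cells Lamb3 was at 11.5, 0, 55.3, 31.7, 23.7, 26.5 and 0 CPM in mice 1, 2, 3, 4, 5, 7 and 8, from 23 UMIs in 23 cells. Macrophage-like cells held 4 UMIs, at 1.02 ± 1.77 CPM, and the log2 fold change of macrophage-like against T/NK-like cells was -2.77 ± 0.696 (adjusted p = 0.001). It was lower in macrophages in 5 of 7 mice and at 0 in both classes in mice 2 and 8. The call was lost in the CB series alone. Barcodes with fewer than 200 genes held Lamb3 at 22.7 ± 13.6 CPM, close to the T/NK level. Of the 23 T/NK-like cells with a Lamb3 UMI, 22 held a T/NK marker and 4 held PyMT (17.4%, against 4.12% of the other T/NK-like cells). Tumor/alveolar markers in T/NK-like cells stood at 8.31% of their tumor level and in macrophage-like cells at 5.64%, and pooled Lamb3 in T/NK-like cells was 66.4% of its tumor level. The part of tumor RNA in the T/NK value of Lamb3 was not tested. Among cells with no tumor/alveolar marker UMI, T/NK-like cells held 6 Lamb3 UMIs, at 10.6 CPM (95% exact interval 3.87 to 23.0), and macrophage-like cells 0, with an upper limit of 4.79 CPM.

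Macrophage-like cells had 1 member called higher and 1 lower (Lamb3) against the T/NK reference. The higher one was Col4a2 (adjusted p = 0.0305), from 20 UMIs at 0 to 26.2 CPM against 3 UMIs, a pooled ratio of 4.30 (95% exact interval 1.28 to 22.6), where 24.7% of all genes were called, 14.4% higher and 10.3% lower. This call was lost under 12 alternatives, among them those without mouse 1, 4, 5, 7 or 8 (adjusted p up to 0.805). For all 10 members the mean macrophage and T/NK levels were below the mean level of barcodes with fewer than 200 genes.

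The classes fell in different orders for different members. For Col4a1, Col4a2 and Col18a1 the mean CPM was highest in endothelial-like cells (1513 ± 264, 1771 ± 513 and 318 ± 109, n = 3). On the TMM scale Col4a1 and Col4a2 were not called against fibroblast-like cells (edgeR adjusted p = 0.821 and 0.449). None of the 3 was called against myoepithelial-like cells (0.29, 0.312 and 0.636). With total UMIs as scale, Col4a1 and Col4a2 were called against fibroblast-like cells and Col4a2 against myoepithelial-like cells. The next levels of Col4a1 were 814 ± 302 in fibroblast-like and 751 ± 393 in myoepithelial-like cells, neighbors that did not differ beyond their spread. For Nid1, Hspg2 and Lamc1 fibroblast-like cells came first (783 ± 185, 372 ± 82.1 and 260 ± 106.5), followed by endothelial-like or myoepithelial-like cells, and for Lama4 and Lamb1 fibroblast-like and endothelial-like cells did not differ in the call. For Lama5 hormone-sensing luminal-like cells came first (84.5 ± 30.4), then tumor/alveolar-like cells (32.6 ± 15.3). Endothelial-like cells were at 30.6 ± 29.5 from 3 UMIs and were not compared with the luminal classes, so their place in this order is not settled.

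The choice of chain was compared between classes as the share of a pair's UMIs, so that a constant difference in capture between 2 genes enters both classes alike. Mice with at least 5 UMIs of the pair in both classes were used, and differences were tested with exact permutations that flip the sign in each mouse (two-sided, adjusted over 5 shares). The Lama4 share of Lama4 and Lama5 UMIs was 88.2%, 92.3% and 100% in endothelial-like cells of mice 4, 5 and 8, against 31.2%, 52.8% and 20% in tumor/alveolar-like cells. It was higher in 3 of 3 mice, with an exact permutation p of 0.25, below which 3 mice cannot go. In fibroblast-like cells of these mice it was 100% (exact permutation p = 0.5 against endothelial-like cells). Mean tumor/alveolar-like levels of Lama4, Lama5 and Lamb1 (16.5, 32.6 and 11.7 CPM) were below those of barcodes with fewer than 200 genes (22.9, 43.7 and 28.3 CPM). The part of free RNA in the tumor/alveolar shares was not tested. The Lamb3 share of Lamb1 and Lamb3 UMIs was 0 in endothelial-like cells of 3 mice and 65.5% to 68.9% in their tumor/alveolar-like cells (exact permutation p = 0.25, again the smallest possible). It rests on 9, 9 and 11 endothelial and 45, 29 and 6 tumor/alveolar UMIs of the pair in mice 4, 5 and 8. In myoepithelial-like cells it was 60%, 20%, 14.3% and 25% in mice 1, 4, 5 and 8, lower than the tumor/alveolar share in 4 of 4 (exact permutation p = 0.125, the smallest that 4 mice allow), from 5, 10, 7 and 8 myoepithelial UMIs of the pair. The Col4a1 share of Col4a1 and Col4a2 UMIs was 36.9 ± 15.6% in endothelial-like and 55.1 ± 7.31% in fibroblast-like cells (SD, n = 6), higher in endothelial-like cells in 1 of 6 mice (exact permutation p = 0.0625, adjusted 0.312). With at least 10 cells of a class, a limit chosen after seeing the data, 3 mice remained and the difference shrank from -18.2 to -7.19 percentage points. With 3 to 6 mice and 5 shares, an adjusted p under 0.05 could not be reached for any share, so these tests could not make a call.

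**Figure D4:**
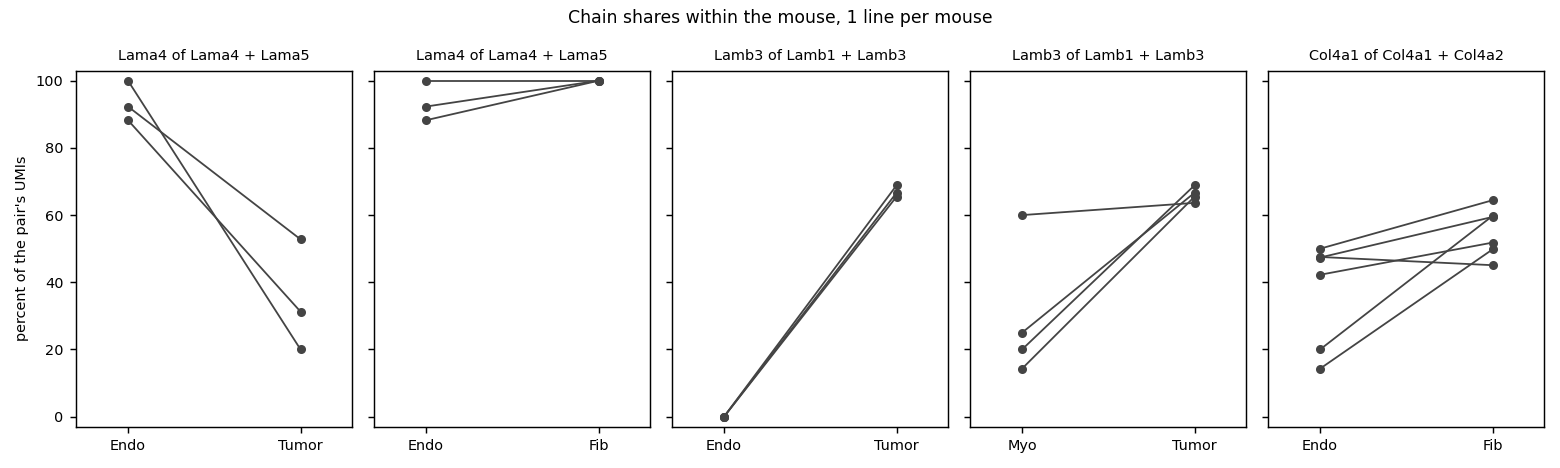
Each line is a mouse, and each panel gives the percent of a pair's UMIs that came from the named chain in 2 cell classes. Endothelial cells of 3 mice held 88.2% to 100% Lama4 and no Lamb3, and tumor cells 20% to 52.8% Lama4 and 65.5% to 68.9% Lamb3. Mean tumor levels of Lama4, Lama5 and Lamb1 were below those of barcodes with fewer than 200 genes, and the part of free RNA was not tested.

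Genes with the most similar pattern were sought among 8288 genes with at least 200 UMIs, by Pearson's r of log2(CPM + 10) over the 43 sums. These sums share mice and classes, so r is a description. Col4a1 was most like Col4a2 (r = 0.978), followed by Lamb1 and Sparc, and Lama4 was most like Lamb1 (0.967). Nid1 was most like Cxcl12 (0.951) and Hspg2 most like Col6a1 (0.957). Lamc1 was most like Col4a1 (0.925). Lama5 and Lamb3 had weaker partners, Mboat1 for Lama5 (0.817) and Perp, a desmosome-associated gene, for Lamb3 (0.809). Col18a1 had too few UMIs in the sums for this measure.

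The other genes of the pathway were described in 3 lists, each against T/NK-like cells. Beside their counts, the share of all genes called higher was 19.4% in fibroblast-like, 12.1% in myoepithelial-like, 4.91% in endothelial-like, 27.1% in tumor/alveolar-like, 21.4% in hormone-sensing luminal-like and 14.4% in macrophage-like cells. The share called lower was 16.7%, 13.9%, 6.94%, 15.4%, 17.2% and 10.3% in the same order. Of 22 other basement membrane components, 17 were tested, and 12 were higher and 1 lower in fibroblast-like than in T/NK-like cells, with a median log2 fold change of 5.6 (3.72 with genes at 0 UMIs set to their bound). Among them Sparc, a collagen-binding glycoprotein, was at 16630 ± 4479 CPM and Lama2 at 299 ± 80.2 CPM in fibroblast-like cells. In myoepithelial-like cells 11 of 17 were higher, led by Sparc (10780 ± 4277 CPM), Fbln1 (15.7 ± 21.8 CPM, from 6 UMIs against 0) and Agrn (238 ± 209 CPM), and in endothelial-like cells 7 of 17. In tumor/alveolar-like cells 11 of 17 were higher, led by Ntn4 (34.3 ± 15.6 CPM), Smoc1 (78.4 ± 36.2 CPM) and Lamb2 (20.3 ± 8.55 CPM). In hormone-sensing luminal-like cells 9 were higher and 1 lower. In macrophage-like cells 0 of 17 were called by edgeR, and 1 (Tinagl1, lower) had an unadjusted p under 0.05.

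All 13 genes of collagen folding and crosslinking were higher in fibroblast-like than in T/NK-like cells, and Serpinh1, the collagen chaperone, was at 2106 ± 445 CPM. In myoepithelial-like cells 11 of 13 were higher, in tumor/alveolar-like cells 7 with 1 lower, in endothelial-like and macrophage-like cells 6 each with 0 and 1 lower, and in hormone-sensing luminal-like cells 5 with 1 lower. Serpinh1 was at 889.5 ± 139 CPM in myoepithelial-like and 1143 ± 477 CPM in endothelial-like cells. Of 16 receptors, 15 were tested, of which 11 were higher and 1 lower in myoepithelial-like cells, led by Dag1 (dystroglycan, 509 ± 107 CPM), while 9 were higher and 2 lower in each luminal class, with Itgb4, the beta chain of the laminin-332 receptor, at 44.3 ± 13 CPM in hormone-sensing luminal-like and 26.2 ± 11 CPM in tumor/alveolar-like cells. Fibroblast-like cells had 7 receptors higher and 2 lower, endothelial-like cells 3 and 1, and macrophage-like cells 2 and 2, where 14.4% of all genes were higher and 10.3% lower. Itga1, the alpha chain of a collagen receptor, was lower in tumor/alveolar-like, hormone-sensing luminal-like and macrophage-like cells than in T/NK-like cells, where it was at 50.1 ± 35.8 CPM. Of all genes, 15.4%, 17.2% and 10.3% were called lower in these comparisons.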

How the data were processed

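Single-cell libraries of 7 tumors, 1 for each mouse, were made by Drop-seq. The authors deposited counts of UMIs for each gene and barcode, which were not normalized. Per the study's methods the alignment, after filtering of reads, used mm10 (mouse) plus a PyMT sequence. The submitters' processing notes name STAR and FastQC, and list the human builds GRCh37.p13 and hg19, while all gene symbols are of mouse form. The counting program was not given in the sources used here. Cells of HK2-deleted mice were not analysed here, and some items are not reported here. The matrices held 0 columns of other samples.

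Barcodes with 200 to 6000 genes were kept, and no doublet caller was run. Cells were clustered in Seurat 5.3.0 (R 4.3.3) on log-normalized counts with 20 principal components and resolution 0.6, without the basement membrane genes and the genes of the 3 lists. Clusters were named from marker lists, 15 of 16 receiving a name. Counts were summed for each mouse and class with at least 10 cells (43 sums) and fitted in 1 model with edgeR 4.0.16 (quasi-likelihood test, TMM scaling, mouse as block, 13062 genes with at least 50 UMIs, Benjamini-Hochberg adjustment). The block follows from the labels, since the classes of a mouse come from 1 library. Every test is between cell classes and rests on mice as replicates, while ratios and shares with an exact interval pool the mice. Intervals and limits at 3 UMIs cover counting error only. A fitted fold change of a gene with few UMIs in a class depends on the prior count. Its SE was the absolute log2 fold change over the square root of the F statistic, and so depends on it too.

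The named genes were the 10 members, up to 3 called genes of a list with the largest absolute log2 fold change, and the genes most like each member. Members, marker lists and gene lists were chosen with earlier results of these data known. Clusters were made from the same cells that were compared, although without the members. Alternatives covered the gene limit, the clustering, a marker gate, the upper 5% of UMIs, cells in a sum, title series, filters, scaling, the block, the samples in the fit, DESeq2 1.42.0 and each mouse left out. The test was tried on simulated counts. Positions are from GENCODE M21 (GRCm38), and other values were computed in Python 3.11.15 (numpy 2.4.6, scipy 1.17.1, pandas 2.3.3).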

Additional observations from a re-analysis of the deposited data

Results flagged for a closer look

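Of 60 groups of 5 to 7 mice (a member in a class), 19 held a mouse far from the others by Dixon's criterion, which flags about 1 in 20 groups by chance when values are continuous. That rate does not apply to groups mostly at 0 UMIs, and in 5 of the 19 all other mice were at 0. All but 2 of these values rest on at most 8 UMIs. Mouse 8, the library with the fewest UMIs in cells, gave 6 of them, all high: Lama5 at 63.5 CPM (8 UMIs), Lamc1 at 39.7 CPM (5 UMIs) and Col18a1 at 15.9 CPM (2 UMIs) in tumor/alveolar-like cells, Col4a1 at 23.7 CPM (1 UMI) and Lamc1 at 71.2 CPM (3 UMIs) in hormone-sensing luminal-like cells, and Lamb3 at 8.57 CPM (3 UMIs) in fibroblast-like cells. Mouse 1 stood apart with Hspg2 at 271 CPM (12 UMIs) in myoepithelial-like cells, Nid1 at 25.1 CPM in hormone-sensing luminal-like and 23.0 CPM in T/NK-like cells, Lama4 at 17.5 CPM in macrophage-like cells and Lama5 at 11.4 CPM (1 UMI) in fibroblast-like cells. Mouse 2 had the highest fibroblast-like Lamc1, at 473 CPM from 27 UMIs, and 1 UMI of Lamb1 (2.72 CPM) in T/NK-like cells. Mouse 4 stood apart with Lama4 at 11.9 CPM in T/NK-like cells, Col4a2 at 3.33 CPM in hormone-sensing luminal-like cells and Col18a1 at 2.70 CPM in macrophage-like cells. Mouse 5 had Hspg2 at 5.87 CPM in hormone-sensing luminal-like and 9.48 CPM in T/NK-like cells, and mouse 7 had Col4a1 at 13.2 CPM in T/NK-like cells.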

How the results depend on the processing

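The 59 calls of a member in the 11 comparisons kept their direction in each of the 24 alternatives that gave a value, and 36 were also called in every one. RLE scaling, resolution 1.0, 30 principal components and at least 20 cells in a sum lost 0 of the 59 calls by edgeR, total UMIs as scale 1, DESeq2 5, at least 500 genes a cell 9, the CB series alone 12, the WT series alone 18 and leaving out mouse 4, the largest library, 12. Without the mouse as replicate block 58 of 59 calls were kept.

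Counts of called members moved as follows, and the cause was not tested except where fewer members could be fitted. Against T/NK-like cells, the 5 calls of tumor/alveolar-like cells became 3 with at least 500 genes and with no filter on low counts, and 2 in the CB and in the WT series. The 2 calls of hormone-sensing luminal-like cells became 1 in those 4 settings, with the 2 classes alone in the fit and with DESeq2. With the 2 classes alone in the fit, 3 members could be tested in myoepithelial-like cells and 3 were called (8 in the full fit), 2 in endothelial-like cells and 2 were called (8 in the full fit), and 0 in macrophage-like cells. The 2 macrophage-like calls became 0 in the CB series and 1 with at least 500 genes, with basement membrane genes in the clustering, with the marker gate, in the WT series, with filterByExpr, with no filter and with DESeq2. Endothelial-like against fibroblast-like cells went from 4 calls to 1 in the CB series and to 7 with at least 5 cells in a sum, an alternative chosen after seeing the data. Over all genes this comparison had 265 higher and 831 lower with TMM, 388 and 558 with RLE, and 604 and 424 with total UMIs. Endothelial-like against myoepithelial-like cells went from 1 call to 0 with at least 500 genes and in the WT series, 2 with filterByExpr and RLE, and 4 with total UMIs. Hormone-sensing luminal-like against tumor/alveolar-like cells went from 5 calls to 0 in the WT series, where edgeR was fitted on 3 mice.

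With each mouse left out in turn, the calls against T/NK-like cells numbered 3 to 5 for tumor/alveolar-like, 1 to 2 for hormone-sensing luminal-like, 8 to 9 for myoepithelial-like, 8 to 9 for fibroblast-like, 7 to 8 for endothelial-like and 1 to 2 for macrophage-like cells. They numbered 3 to 5 for endothelial-like against fibroblast-like, 0 to 1 for endothelial-like against myoepithelial-like, 5 to 7 for myoepithelial-like against fibroblast-like, 7 to 8 for myoepithelial-like against tumor/alveolar-like and 4 to 5 for hormone-sensing luminal-like against tumor/alveolar-like cells. Differences of the chain shares lay between 48.3 and 68.5 percentage points for Lama4 (endothelial-like minus tumor/alveolar-like), -9.73 and -3.85 for Lama4 (endothelial-like minus fibroblast-like), -67.8 and -66.1 for Lamb3 (endothelial-like minus tumor/alveolar-like), -47.3 and -31.4 for Lamb3 (myoepithelial-like minus tumor/alveolar-like) and -22.3 and -13.8 for Col4a1. With at least 10 UMIs of the pair in both classes, 0 mice remained for Lamb3 in endothelial-like cells, 1 for Lamb3 in myoepithelial-like cells and 2 for each Lama4 share. With the marker gate 63 of 70 mean levels moved by less than 1 SD, and with at least 500 genes 66 of 70. Lamb3 in myoepithelial-like cells and Col4a1 and Col4a2 in tumor/alveolar-like cells were among those that moved with the gate. At the depth of the 3 mice used, 0 UMIs in endothelial-like cells allow up to 31.1 CPM, so only high levels could be told from 0 there.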
